A study of Mus musculus with 4 samples.

Results

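The genes described here are 38 genes of the IRE1 and ATF6 arms of the unfolded protein response, the chaperones and disulfide enzymes of the endoplasmic reticulum (ER), and ER-associated degradation (ERAD). The rule lists them by name, without the eIF2alpha arm, and uses no measured value, although the list was drawn up with earlier results of these data known. The count table holds 55487 gene IDs. All 38 were found and all 38 passed the filter on low counts, among 19194 genes tested. The cells were group 2 innate lymphoid cells (ILC2s), tissue-resident lymphocytes that make type 2 cytokines, sorted from mouse colon and kept in culture with the alarmins IL-33 and IL-25 beside IL-7 and IL-2. There were 2 Control libraries and 2 libraries of cells exposed for 16 h to FK866, an inhibitor of NAMPT, the rate-limiting enzyme of NAD+ salvage from nicotinamide. Strain, age, dose and the number of animals were not given in the sources used here, and both groups shared the cytokine culture.

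Secreted and membrane proteins fold in the ER, where HSP70-type and lectin chaperones hold the chain and protein disulfide isomerases form its disulfide bonds. When unfolded chains accumulate, the membrane kinase and nuclease IRE1 (encoded by Ern1) splices the Xbp1 mRNA, and ATF6 is cut in the Golgi into an active transcription factor. Both raise chaperone and ERAD genes, and ERAD returns misfolded chains to the cytosol for the proteasome. Both arms act largely through splicing and proteolysis, which counts per gene do not measure: spliced and unspliced Xbp1 mRNA cannot be told apart here.

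Library totals ranged from 27617750 to 37841233 counts. FK866 replicate 2 stood apart, with 22461 genes at 10 or more counts against 17152 to 18667 in the other libraries, so calls that depend on it are named below. Levels are in CPM, a gene's count relative to its library's total, with that total scaled by the TMM factor of edgeR. The 13 ILC2 marker genes all exceeded 1 CPM in a library, summing to 6681 and 6888 CPM in Control and 6437 and 5489 CPM in FK866 libraries. They did not move together: Rora rose (1.70 ± 0.12 in log2 fold change, edgeR adjusted p = 0.000457), while Icos (-0.84 ± 0.15), Id2 (-0.89 ± 0.16) and Il13 (-1.49 ± 0.28) fell (edgeR adjusted p = 0.0101, 0.0111 and 0.0118). The other 9 were not called. Among them, Gata3 was at 1082 and 947 against 842 and 699 CPM (-0.40 ± 0.14, edgeR adjusted p = 0.0921), and was called in some alternative fits. Il2ra, Klrg1, Thy1 and Ptprc also had both FK866 libraries below both controls, and Il7r had both above. For Il1rl1 (0.018), Areg and Il5 the groups overlapped. Plasma cells carry a high ER chaperone load, and the 7 B and plasma cell markers summed to 1.21 and 2.48 CPM in Control and 7.79 and 10.9 CPM in FK866 libraries. The most abundant of the 7 was Sdc1, at 0.495 and 1.63 against 6.45 and 8.35 CPM (2.81 ± 0.53, edgeR adjusted p = 0.0116). Jchain, Mzb1 and Igkc stayed at or below 0.588 CPM in each of the 4 libraries, and Mzb1 at or below 0.0588 CPM. Other marker lists summed higher, each mostly through 1 gene. In Control against FK866 libraries, T cell markers summed to 17.1 and 18.1 against 17.7 and 17.8 CPM. Cd3g alone held 14.4 and 15.4 against 14.7 and 14.8 CPM. Myeloid markers summed to 9.91 and 13.4 against 13.4 and 14.4 CPM, of which Fcer1g held 8.59 and 10.8 against 8.34 and 10.1 CPM. Epithelial markers summed to 42.3 and 55.9 against 27.8 and 40.5 CPM, of which Epcam held 41.3 and 54.1 against 25.1 and 36.9 CPM. Stromal markers summed to 185 and 144 against 227 and 192 CPM, of which Pecam1 held 181 and 142 against 225 and 187 CPM. These sums therefore describe mainly Cd3g, Fcer1g, Epcam and Pecam1. The part of these markers in the results was not tested. In a bulk culture, fewer cells of a type and less RNA per cell cannot be told apart.

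Of the 38 genes, 6 rose and 3 fell with FK866, and 29 were not called (quasi-likelihood test of edgeR, adjusted by Benjamini-Hochberg over all genes tested, called under 0.05). The risers were the IRE1 gene Ern1, the HSP70-type chaperone gene Hspa13, the nucleotide exchange factor gene Sil1, the lectin chaperone gene Canx, the disulfide isomerase gene Pdia4 and the oxidase gene Ero1l. The genes that fell were Sdf2l1, a co-factor of the HSP70 chaperone BiP, and the derlin genes Derl2 and Derl3, which act in ERAD. The share called was 23.7% of the 38, against 13.2% of all genes tested (2534 genes). By direction, 15.8% were called higher against 5.31% of all genes, and 7.89% were called lower, the same as the 7.89% of all genes. Derl3 passed the filter on low counts only through the Control libraries, where it was higher, and without it 2 of 37 were called lower (5.41%). The median log2 fold change of the 38 was 0.20, against 0.025 over all genes tested.

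Levels in both FK866 libraries were above both Control libraries for 21 of the 38 genes (55.3%, against 28.4% of all genes) and below both for 12 (31.6%, against 29.3%). The groups overlapped for 5: Atf6b, Hyou1, Creld2, Syvn1 and Edem1. Most of the 38 are well expressed. Among the 9369 protein-coding genes whose mean log2 CPM exceeded 2, which hold 37 of the 38, 9.40% were called higher, 14.8% were called lower, 29.0% lay above both controls and 40.9% below, and the median log2 fold change was -0.093. At an unadjusted p under 0.05 stood 20 of the 38 genes and 5370 of all 19194. Summed over the 38 genes, the counts were 1.39% and 1.35% of the library total in Control replicates 1 and 2, and 1.66% and 1.68% in FK866 replicates 1 and 2.

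**Figure D1:**
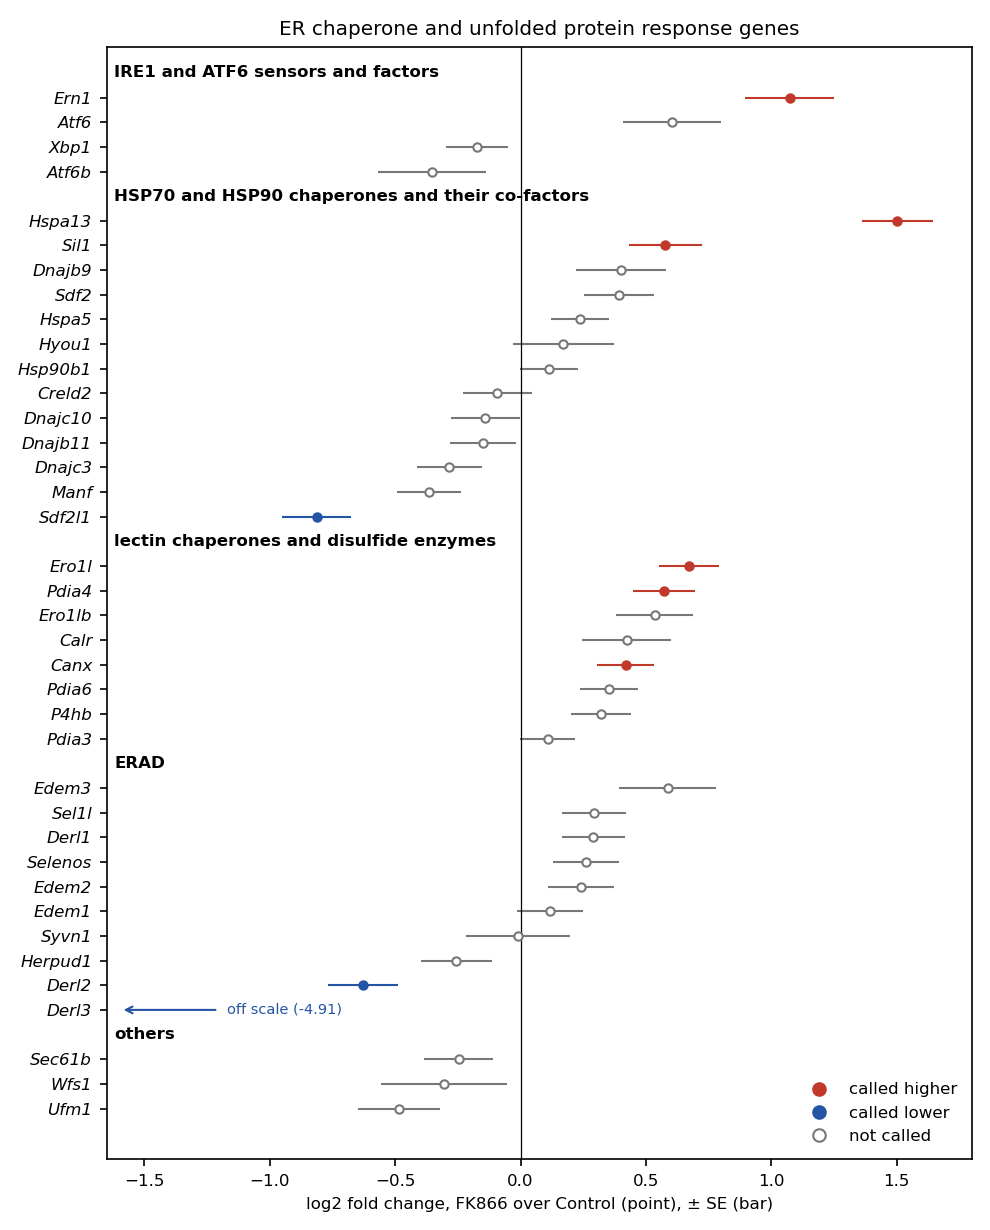
Log2 fold change of FK866 over Control for each of the 38 genes, grouped by role, with bars of 1 standard error from edgeR over 2 libraries a group. All 8 lectin chaperone and disulfide genes lie right of 0, and Derl3, measured on few counts, lies far to the left.

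Calls among the 38 depended on the scaling and on single libraries. With library totals in place of TMM, 10 rose and 3 fell, and with the trend over transcript length and GC content removed, 15 rose and 4 fell. Without FK866 replicate 1, 3 rose and 4 fell and the median log2 fold change was 0.053. Without Control replicate 1, 7 rose and 6 fell. With no filter on low counts, which tests 45373 genes, Sil1, Canx, Pdia4 and Ero1l were no longer called. Of the 29 genes not called, 18 were called in at least 1 of the 11 alternatives and 11 in none, so a missing call does not show that a gene stayed level. Longer transcripts had higher log2 fold changes over the 9369 well-expressed genes (Spearman's rho of 0.33, taken across genes and therefore not over independent replicates), and the same rho was 0.30 over the 38. The median length of the longest transcript was 4259 nt for the 6 risers and 1321 nt for the 3 genes that fell. The lengths overlapped: the risers ran from 1703 nt (Sil1) to 6946 nt (Ern1). Of the genes that fell, Derl2 had 4369 nt, Sdf2l1 1108 nt and Derl3 1321 nt. The part of length in these calls was not tested beyond that fit.

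**Figure D2:**
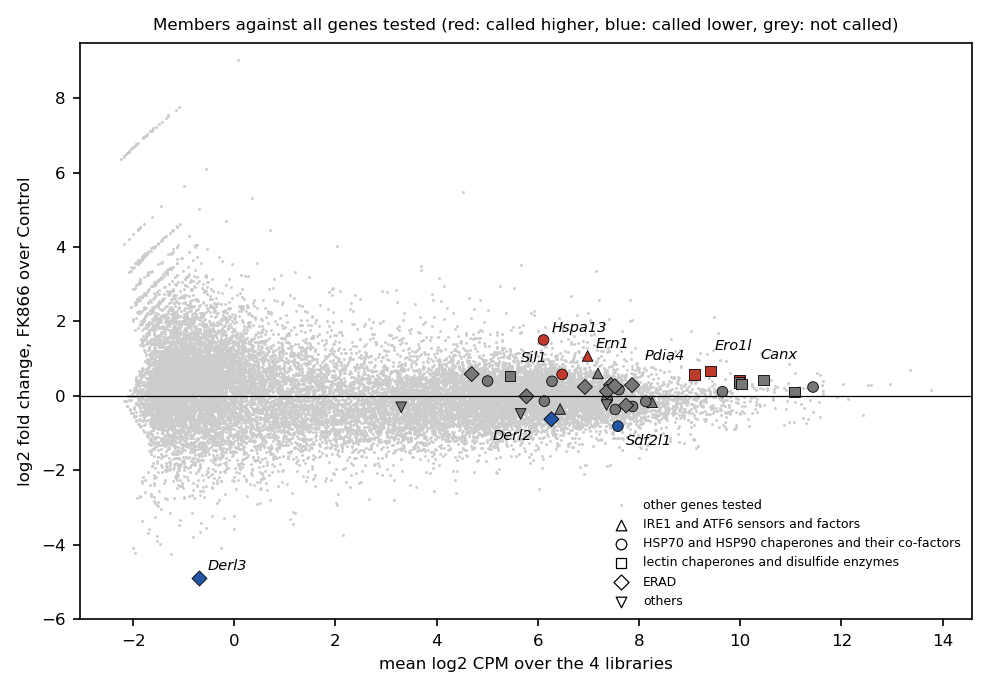
Log2 fold change against mean log2 CPM for all 19194 genes tested (grey dots) and the 38 genes (symbols by role, red called higher, blue called lower). The 38 lie mostly among the well-expressed genes, with Hspa13 and Ern1 uppermost, and Derl3 lies apart at a low level.

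Several of these genes are textbook targets of ATF6 and XBP1, which bind the ER stress element (ERSE), so the promoter windows were searched for it. ERSE is CCAAT and CCACG separated by 9 bases, and ERSE-II is ATTGG and CCACG separated by 1 base. Exact letters of both were searched on both strands of RefSeq windows on GRCm38.p6 from 250 bases before to 50 after each gene start. ERSE was found in 39 of 32851 windows (0.119%) and ERSE-II in 12 (0.0365%), with no window holding both. Of the 38 genes, 32 had a window, and 10 of these held ERSE and 2 held ERSE-II. Atf6, Hspa13, Hyou1, Sil1, Manf and Derl1 had no entry. The elements below were chosen because they span the 3 outcomes: Canx rose, Derl3 fell on few counts, and the others were not called. Each sequence reads in the gene's direction, 10 flanking bases on each side, with the paired boxes of the element in capitals, and coordinates given for them include the flanks. Where the element lies on the other strand, these boxes appear as CGTGG and ATTGG.
Hspa5: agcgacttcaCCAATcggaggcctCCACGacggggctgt
Canx: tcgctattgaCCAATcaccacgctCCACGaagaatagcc
Derl3: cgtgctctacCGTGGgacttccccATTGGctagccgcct
Calr: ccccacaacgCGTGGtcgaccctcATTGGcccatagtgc
Hsp90b1: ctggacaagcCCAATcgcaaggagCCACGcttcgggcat
Pdia6: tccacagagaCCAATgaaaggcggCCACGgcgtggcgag
Syvn1: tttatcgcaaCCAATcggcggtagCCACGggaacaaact
Herpud1: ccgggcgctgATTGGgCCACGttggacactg

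The Hspa5 element lies at chr2:34772015-34772053 on the plus strand, starting 65 bases before the gene start, and the Canx element at chr11:50325790-50325828 on the minus strand, 145 bases before it. The Derl3 match lies at chr10:75893232-75893270, 156 bases before the start. That of Calr is at chr8:84847065-84847103, and that of Pdia6 at chr12:17266481-17266519. Hsp90b1 held 2 matches, of which the one shown is at chr10:86705628-86705666, and Syvn1 held 1 at chr19:6046522-6046560. ERSE was also found in the windows of Ero1lb, Dnajc3 and Creld2. The Herpud1 ERSE-II lies at chr8:94386367-94386397 and that of Dnajb11 at chr16:22857842-22857872, past the gene start. The whole 250 bases before the Hspa5 start, at chr2:34771840-34772089, show how the element sits beside further ccaat letters.
Hspa5 upstream: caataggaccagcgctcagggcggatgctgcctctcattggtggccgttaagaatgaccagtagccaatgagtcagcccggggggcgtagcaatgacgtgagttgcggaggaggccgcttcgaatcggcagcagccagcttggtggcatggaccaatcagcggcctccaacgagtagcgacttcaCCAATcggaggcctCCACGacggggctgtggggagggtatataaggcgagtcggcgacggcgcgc

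Of the 12 genes with an exact match, 1 rose (Canx) and 1 fell (Derl3). Derl3 was tested only through its high Control counts, and its call is a description. The median log2 fold change of the 12 was 0.051. Over all genes tested, 5.31% were called higher and 7.89% lower. Of the 20 genes with a window and no exact match, 3 rose (Ern1, Pdia4 and Ero1l) and 2 fell (Sdf2l1 and Derl2). Their median was 0.18, and the difference between the sets was not tested. Hspa5, the standard example of an ERSE-bearing gene, was not called. Among 99 other ER pathway genes with a window, 1 (Krtcap2) held an exact match. A match is a description of letters and not of binding. Only exact letters were searched, so a gene without a match may still hold an element with other letters.

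**Figure D3:**
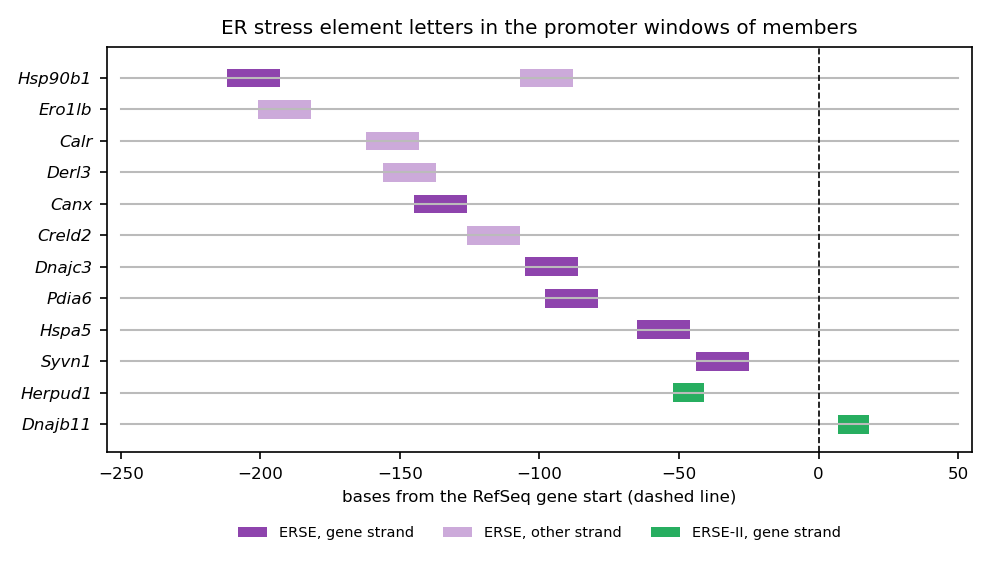
Position of ERSE and ERSE-II matches relative to the gene start (0, in bases) for the genes with a match. Colours give the strand and the element. All 11 ERSE matches of the 38 genes begin between 44 and 212 bases before the start.

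Among the 4 sensors and transcription factors, 1 rose (25%, against 5.31% of all genes tested). Ern1 encodes IRE1, the sensor that splices Xbp1 mRNA (chr11:106394650-106487852, minus strand, mm10). It stood at 92.3 and 70.8 CPM in Control and 191 and 152 CPM in FK866 libraries, and both FK866 libraries were above both controls. The log2 fold change was 1.07 ± 0.18 (SE), a 2.10-fold rise, with an edgeR adjusted p of 0.00752. Ern1 was called in each of the 11 alternative settings. Xbp1, whose unspliced and spliced transcripts are counted together, held 338 and 311 CPM in Control and 287 and 289.5 CPM in FK866 libraries, both FK866 values being lower. Its log2 fold change was -0.17 ± 0.12 (edgeR adjusted p = 0.412). Atf6, the Golgi-cleaved sensor, stood at 103 and 128 against 143 and 209 CPM, with both FK866 libraries higher but 0.60 ± 0.20 short of the call (edgeR adjusted p = 0.0785), and it was called in 5 of the 11 alternatives. Atf6b, its close relative, was at 116 and 78.3 against 87.6 and 65.0 CPM, where the groups overlapped (-0.35 ± 0.22, edgeR adjusted p = 0.336). Of the 9 accessory genes of both arms, which include the site proteases that cut ATF6, 1 rose (11.1%, against 5.31% of all genes tested). This was the CREB3-family factor Creb3l2 (47.0 and 56.3 against 87.2 and 72.8 CPM, edgeR adjusted p = 0.0373). The adjusted p was 0.123 without Control replicate 1 and 0.341 without FK866 replicate 1. None of the 5 tested substrates of IRE1-dependent decay passed the test. The most abundant were the lysosomal enzyme gene Hgsnat at 77.6 and 70.5 against 59.9 and 50.9 CPM (-0.42) and Bloc1s1 at 1.82 and 1.63 against 1.26 and 1.03 CPM (-0.59). Another gene on the same strand covers 55.9% of the Bloc1s1 exon bases, and reads there cannot be assigned to either.

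**Figure D4:**
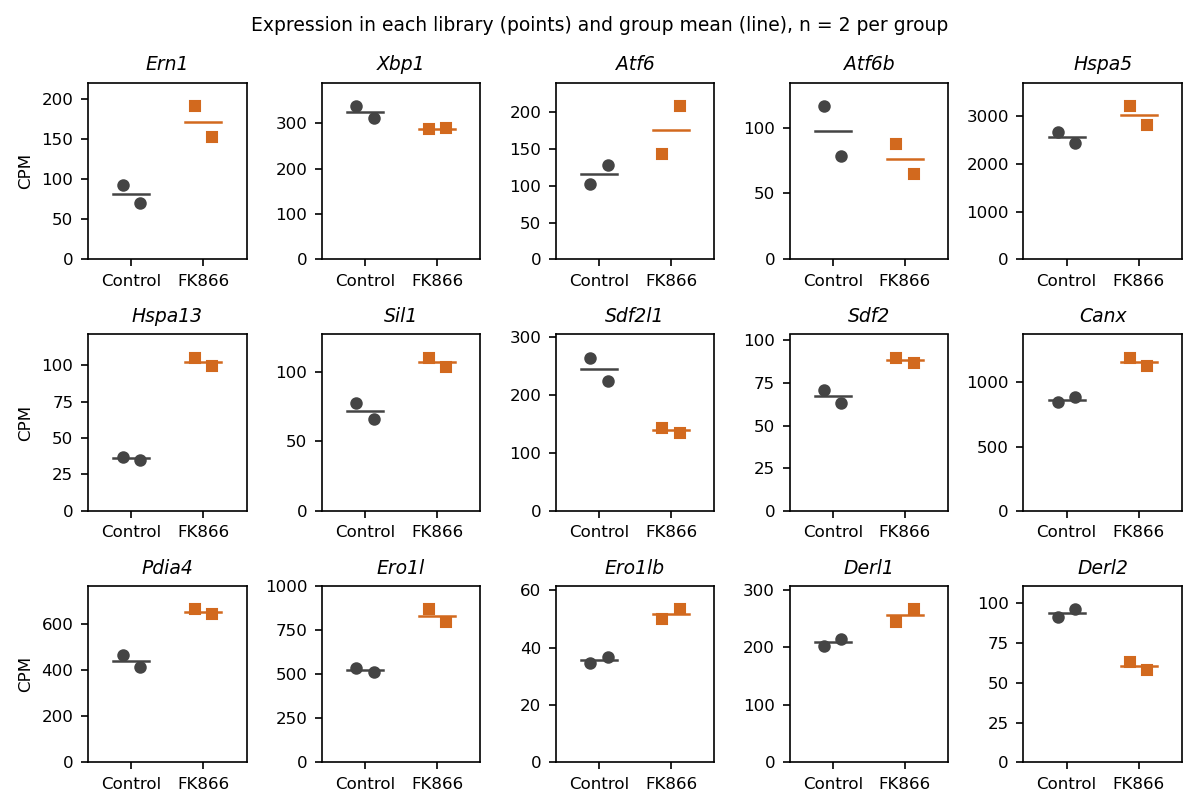
CPM in each library for 15 of the genes, 2 Control and 2 FK866 points each, on a linear axis from 0 set for each gene. Ern1, Hspa13 and Ero1l show all FK866 points above the controls, and Sdf2l1 and Derl2 show them below.

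Of the 13 HSP70 and HSP90 chaperones and co-factors, 2 rose and 1 fell, with a median log2 fold change of 0.11. Called higher were 15.4%, against 5.31% of all genes tested and 9.40% of the well-expressed ones. Called lower were 7.69%, near the 7.89% of all genes tested. Hspa13 encodes an HSP70-family ATPase of the microsomes (chr16:75745431-75767104, minus strand). It held 37.2 and 35.0 CPM in Control and 105 and 99.3 CPM in FK866 libraries, with no overlap. The log2 fold change was 1.50 ± 0.14, a 2.83-fold rise and the highest of the 38 (edgeR adjusted p = 0.0011), and it was called in each alternative. Sil1, which releases ADP from BiP, stood at 77.6 and 65.7 against 110.3 and 104 CPM (0.58 ± 0.15, edgeR adjusted p = 0.0337), with adjusted p of 0.256 and 0.0778 when FK866 replicate 1 or 2 was left out. Its log2 fold change was 0.89 after the trend over length and GC was removed. Hspa5 encodes BiP itself, the main ER chaperone and the classical readout of ER stress. It was at 2667 and 2432 CPM in Control and 3203 and 2812 CPM in FK866 libraries. Both FK866 values were higher, but the log2 fold change of 0.24 ± 0.12 was not called (edgeR adjusted p = 0.224). Hspa5 was called in 3 of the 11 alternatives, among them a minimum count of 100 (edgeR adjusted p = 0.0235) and removal of the length and GC trend (adjusted p = 0.0298). Without FK866 replicate 1 its log2 fold change was 0.045. Hsp90b1, the ER HSP90 (GRP94), was at 742 and 801 against 853 and 816 CPM (0.11 ± 0.12, edgeR adjusted p = 0.593), and its fold change changed sign when a single library was left out.

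Sdf2l1 and Sdf2 encode related ER proteins that work with BiP and DNAJ co-chaperones. Sdf2l1 (chr16:17130138-17132383) held 265 and 224 CPM in Control and 143 and 135 CPM in FK866 libraries. It fell by 0.814 on the log2 scale (SE 0.14, edgeR adjusted p = 0.0082), was called in each alternative, and stood at -0.44 after that trend was removed. Sdf2 was at 71.0 and 63.3 against 89.9 and 86.4 CPM, both FK866 libraries higher, and was not called (0.39 ± 0.14, edgeR adjusted p = 0.104). Opposite-strand genes cover 16.0% of its exon bases. The difference between the pair was not tested. Of the DNAJ co-chaperones, Dnajb9 was at 0.40, Dnajb11 at -0.15, Dnajc3 at -0.28 and Dnajc10, a disulfide reductase, at -0.14 on the log2 scale, none called. The BiP exchange factor Hyou1 (0.17), the secreted ER protein Manf (205 and 211 against 167 and 156 CPM, -0.37, edgeR adjusted p = 0.0935) and the disulfide protein Creld2 (-0.092) were not called either.

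The 8 lectin chaperone and disulfide genes held 3 risers and no gene that fell. The risers were 37.5% of the 8, against 5.31% of all genes tested and 9.40% of the well-expressed ones. All 8 had both FK866 libraries above both controls, against 28.4% of all genes tested and 29.0% of the well-expressed ones. Their median log2 fold change was 0.42. Summed, they held 7276 and 6664 CPM in Control and 9051 and 8652 CPM in FK866 libraries. Canx encodes calnexin, the membrane lectin that binds monoglucosylated glycans (chr11:50293961-50325673). It was at 845 and 886 against 1192 and 1124 CPM (0.42 ± 0.11, edgeR adjusted p = 0.0435), both FK866 libraries being higher. Leaving out Control replicate 1 gave an adjusted p of 0.161, FK866 replicate 1 0.378 with a log2 fold change of 0.28, and FK866 replicate 2 0.0985. Calr, its soluble partner calreticulin, was at 1357 and 1061 CPM in Control and 1876 and 1364 CPM in FK866 libraries, a like log2 fold change of 0.42 ± 0.18 with more spread, and was not called (edgeR adjusted p = 0.157). Calr was called in 5 of the 11 alternatives, with adjusted p of 0.00183 without Control replicate 1 and 0.0121 without FK866 replicate 2. Without FK866 replicate 1 its log2 fold change was 0.078. Per kilobase of exon, Pdia3, Hspa5 and Calr were the 3 most abundant of the 38, at 689, 657 and 491 CPM per kilobase, and none of these was called.

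Among the disulfide isomerases, Pdia4 (chr6:47796141-47813430) stood at 466 and 414 CPM in Control and 666 and 643 CPM in FK866 libraries. Both FK866 libraries were higher, with a log2 fold change of 0.57 ± 0.12 (edgeR adjusted p = 0.0191, but 0.117 without FK866 replicate 1). Pdia3 (ERp57), which acts on glycoproteins held by calnexin and calreticulin, was at 2118 and 2047 against 2164 and 2324 CPM (0.11 ± 0.11, edgeR adjusted p = 0.582). Pdia6 was at 931 and 836 against 1117 and 1140.3 CPM (0.35), and P4hb, the gene of the classical PDI, at 988 and 872 against 1114 and 1208 CPM (0.32). Neither was called, though both FK866 libraries were higher for each. Ero1l and Ero1lb encode the oxidases that re-oxidise PDI with oxygen, making hydrogen peroxide. Ero1l (chr14:45283087-45318771) was at 536 and 511 CPM in Control and 871 and 797 CPM in FK866 libraries, and rose by 0.67 ± 0.12 on the log2 scale (edgeR adjusted p = 0.00942, and 0.0536 without FK866 replicate 1). Ero1lb was at 34.5 and 36.8 against 49.8 and 53.4 CPM, both FK866 libraries higher, and 0.53 ± 0.15 missed the call narrowly (edgeR adjusted p = 0.0536).

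Of the 12 other disulfide genes, 2 rose and 1 fell (median 0.080). Called higher were 16.7%, against 5.31% of all genes tested, and called lower 8.33%, against 7.89%. The thioredoxin-like Tmx4 was at 20.3 and 18.7 against 40.9 and 38.02 CPM (1.02 ± 0.17, edgeR adjusted p = 0.00794), the retention factor gene Erp44 rose by 0.52 ± 0.14 (edgeR adjusted p = 0.04), and Txndc5 fell by 0.52 on the log2 scale (edgeR adjusted p = 0.0368). Of these only Tmx4 kept its call in all 4 fits that left out 1 library. Without FK866 replicate 1, the adjusted p was 0.258 for Erp44 and 0.0545 for Txndc5, and without FK866 replicate 2 it was 0.117 and 0.164. Without Control replicate 1 it was 0.224 for Erp44. Opposite-strand genes cover 11.9% of the Txndc5 exon bases.

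Of the 10 ERAD genes, 2 fell (20%) and none rose, and the median log2 fold change was 0.18. Called lower were 7.89% of all genes tested and 14.8% of the well-expressed protein-coding genes. 1 of the 2 is Derl3, whose call is limited as given below. Derlins are membrane proteins of the channel through which chains leave the ER. Derl2 (chr11:71007164-71019841) was at 90.9 and 96.1 CPM in Control and 62.9 and 58.2 CPM in FK866 libraries. Both FK866 libraries were lower, with -0.63 ± 0.14 for the log2 fold change (edgeR adjusted p = 0.0214, and 0.179 without FK866 replicate 2). Derl3 (chr10:75893413-75895941) had 33 and 40 counts in Control and 0 and 2 counts in FK866 libraries, and passed the filter through the Control libraries alone. The ratio of its depth-scaled counts in FK866 over Control was 0.031, with an exact 95% interval of 0.00368 to 0.116 that covers counting error only. Since only high Control counts let it be tested, its call (edgeR adjusted p = 0.0291, and 0.0848 without Control replicate 2) is given as a description. Derl1, the third of the family, was at 0.29 and was not called. Herpud1, a stress-induced partner of the HRD1 ubiquitin ligase, was at -0.26. The gene of that ligase, Syvn1, was at -0.011 and its partner Sel1l at 0.29. The mannosidase-like genes Edem1, Edem2 and Edem3, which mark glycoproteins for disposal, were at 0.12, 0.24 and 0.59. Edem3 held 23.0 and 18.3 against 32.6 and 29.4 CPM (edgeR adjusted p = 0.0813), and the derlin-binding selenoprotein gene Selenos was at 0.26. None of these 8 was called.

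Downstream of the membrane complex, 14 genes of ubiquitin transfer and extraction held 2 risers and 1 gene that fell. Called higher were 14.3%, against 5.31% of all genes tested, and called lower 7.14%, against 7.89%. Ubxn4, which recruits the VCP ATPase, was at 175 and 207 against 321 and 303 CPM (0.71 ± 0.14, edgeR adjusted p = 0.013, and 0.0531 without FK866 replicate 1). The ligase gene Rnf139 rose by 0.76 ± 0.15 (edgeR adjusted p = 0.0132, and 0.0556 without FK866 replicate 2), and Aup1, an adaptor for ubiquitin-conjugating enzyme, fell by 0.506 on the log2 scale (edgeR adjusted p = 0.0394, and 0.341 without FK866 replicate 2). Opposite-strand genes cover 22.3% of the Rnf139 and 23.0% of the Aup1 exon bases.

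The 3 remaining genes, Sec61b of the translocation channel, the ubiquitin-like modifier gene Ufm1 and the ER membrane protein gene Wfs1, had log2 fold changes of -0.25, -0.49 and -0.31. All 3 had both FK866 libraries below both controls, against 29.3% of all genes tested and 40.9% of the well-expressed ones. None was called (Ufm1 was at 54.2 and 63.7 against 45.4 and 38.8 CPM, edgeR adjusted p = 0.0875). Of the 6 genes that conjugate UFM1, 1 rose (16.7%, against 5.31% of all genes tested). This was Ddrgk1, at 75.3 and 74.4 against 105 and 106 CPM (edgeR adjusted p = 0.0417). Its adjusted p was 0.105 without Control replicate 1, 0.307 without FK866 replicate 1 and 0.202 without FK866 replicate 2.

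Over 11 lists of other ER genes, 123 genes of which 121 were tested, 18 rose and 6 fell (19.8% called, against 13.2% of all genes). The eIF2alpha arm gave 8 of the 18, and without it 10 rose and 6 fell of 109 tested, or 14.7%. Of the 16 translocon and targeting genes, 1 rose and 1 fell (median -0.12). Each was 6.25% of the list, near the 5.31% called higher and 7.89% called lower of all genes tested. Ssr3, of the translocon-associated complex, was at 241 and 282 against 419 and 428 CPM (0.70 ± 0.13, edgeR adjusted p = 0.0118), and the signal peptidase subunit gene Sec11c at 482 and 562 against 352 and 377 CPM (-0.52 ± 0.13, edgeR adjusted p = 0.0341, and 0.103 without FK866 replicate 2). Of the 14 N-glycosylation genes, 3 fell and 1 rose (median -0.22). Called lower were 21.4%, against 7.89% of all genes tested and 14.8% of the well-expressed ones. Called higher were 7.14%, against 5.31% of all genes tested. Both FK866 libraries were below both controls for 11 of the 14 (78.6%, against 29.3% of all genes tested and 40.9% of the well-expressed ones). Ost4 and Tmem258, small subunits of the oligosaccharyltransferase, fell by 0.979 and 0.681 on the log2 scale (edgeR adjusted p = 0.00721 and 0.0189). An opposite-strand gene covers 53.2% of the Ost4 exon bases. Dpagt1, which starts the lipid-linked glycan, fell by 0.642 (edgeR adjusted p = 0.0274), with adjusted p of 0.0563 and 0.0862 when FK866 replicate 1 or 2 was left out. The riser was the subunit gene Rpn2 (0.46 ± 0.12, edgeR adjusted p = 0.0359), named after its values were seen, with adjusted p of 0.156 and 0.155 in the same fits. Tmem258, Dpagt1, Aup1 and Creb3l2 were no longer called once the trend over length and GC was removed, and Aup1 and Txndc5 with RLE size factors. None of the 12 glycoprotein quality control genes was called, the most abundant being the cargo lectin gene Lman2 (0.36) and the glucosidase gene Mogs (-0.58).

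**Figure D5:**
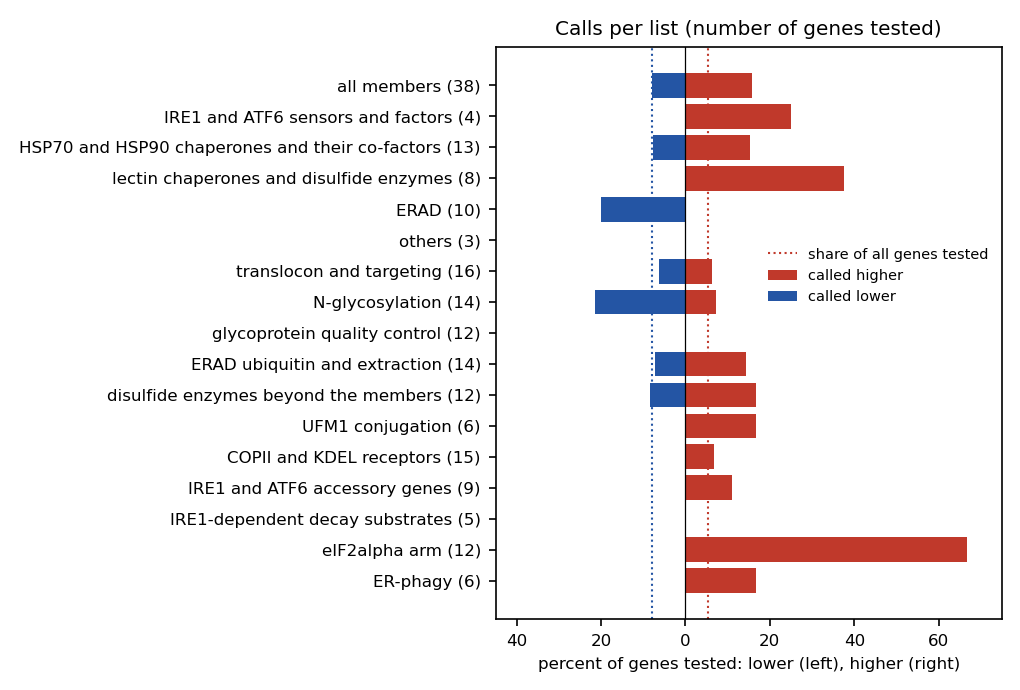
Percent of the tested genes of each list called lower (left, blue) and higher (right, red). Dotted lines mark the shares of all genes, 7.89% lower and 5.31% higher. The eIF2alpha arm has the highest share called, 66.7%.

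The eIF2alpha arm, in which phosphorylation of this initiation factor raises ATF4 and its targets, was measured beside the 38 genes. Of its 12 genes, 8 rose and none fell, with a median log2 fold change of 1.24. The risers were 66.7% of the 12, against 5.31% of all genes tested and 9.40% of the well-expressed ones. This list, like the others, was chosen with earlier results of these data known. Its lowest adjusted p were those of the phosphatase subunit gene Ppp1r15a, at 41.4 and 38.7 against 108 and 98.2 CPM (1.36 ± 0.14, edgeR adjusted p = 0.0015), Atf3 (2.11 ± 0.26) and the asparagine synthetase gene Asns (1.38 ± 0.19). Without FK866 replicate 1, Atf4 and Chac1 were no longer called (edgeR adjusted p = 0.523 and 0.275). The difference between this list and the 38 genes was not tested.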

How the data were processed

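4 libraries were analysed, grouped by title. The authors deposited raw read counts per Ensembl gene ID, as read from the values. Per the labels' protocols, cDNA came from the SMART-Seq HT kit, which primes on poly(A) and does not mark strand, and libraries from Nextera XT. Per the submitters' processing notes, cutadapt 1.9, HISAT2 2.2.1 and mm10 were used. The counting program, its annotation, strand setting and handling of multi-mapping reads were not given in the sources used here, so reads of overlapping genes or near-identical copies may be shared. The labels do not say whether replicates are separate cultures or animals. The p-values therefore measure only the spread between these samples, and that spread may be technical. Replicates differed by more than sampling noise (chi-square per degree of freedom 28.8 for Control, 15.6 for FK866).

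Symbols, positions, lengths and exon overlaps came from GENCODE M21, where 55227 of 55487 IDs had a symbol. After filterByExpr (minimum count 10, minimum total 15), the two-sided quasi-likelihood test of edgeR 4.0.16 (R 4.3.3, TMM, treatment only) was run with glmQLFit and glmQLFTest. A standard error (SE) is the absolute log2 fold change divided by the root of F. The procedure was tested on simulated data. Alternatives were other size factors, library totals, no filter, a minimum count of 100, DESeq2 1.42.0, the replicate block, each library left out, and a fit with the length and GC trend removed. Members and lists were chosen with earlier results of these data known. Members were named by a rule that gives values for called members, the 4 sensors and factors, the 3 most abundant per length and 2 pairs of relatives. From each other list it takes up to 3 called genes with the lowest adjusted p, or else the 2 most abundant. Marker genes were tested in the same fit over all genes, with no test of a marker list. Promoter windows came from RefSeq on GRCm38.p6, where Ero1l and Ero1lb are listed as Ero1a and Ero1b. C-terminal retention tails of the proteins were not analysed here.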

Additional observations from a re-analysis of the deposited data

How the results depend on the processing

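The 6 members called higher became 10 with library totals, 2 with no filter, 17 with a minimum count of 100, 10 with DESeq2, 15 after removal of the trend over length and GC, and 3 to 8 when 1 library was left out. The 3 called lower became 2 to 6 when 1 library was left out. The other ER genes called, 24 in all, became 37 with a minimum count of 100 and 17 to 39 when 1 library was left out. The members' median log2 fold change of 0.20 became 0.33 with a minimum count of 100 and 0.053 to 0.27 when 1 library was left out. The cause was not tested. Removing the trend moved the median of all genes by 0.10 on the log2 scale and gave 1546 genes higher and 1353 lower, against 1020 and 1514. Derl3 was filtered out at a minimum count of 100 and had no adjusted p in DESeq2.

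The replicate numbers are shared between groups, but no label says that they mark a shared origin, and only 2 pairs exist. The deviations of same-numbered libraries correlated at 0.37. The fit with the replicate block called 5256 genes (2197 higher, 3059 lower), 16 members higher and 7 lower, and 54 other ER genes. Hspa5 (edgeR adjusted p = 0.0205) and Calr (adjusted p = 0.000131) were among the members called there.

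Over 416 single-gene comparisons between the settings, 332 kept direction and side of the threshold, 55 passed it newly, 13 no longer passed it and 16 changed sign, all in members not called. With the trend removed, Xbp1 was at 0.063, Dnajb11 at 0.0078, Creld2 at 0.25, Edem1 at -0.0072 and Sec61b at 0.14. Creld2 was at 0.0038 with a minimum count of 100. Syvn1 was at 0.017 with RLE size factors, 0.030 with library totals, 0.074 with a minimum count of 100 and 0.017 with DESeq2. With 1 library left out, the ranges were -0.041 to 0.17 for Hsp90b1, -0.13 to 0.37 for Hyou1, -0.45 to 0.29 for Syvn1 and -0.061 to 0.22 for Edem1. Derl3, at 75 counts in all, is the member whose depth limits its value most.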

Other observations

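2 further lists of the early secretory pathway held 1 riser each, 6.67% and 16.7% of their genes, against 5.31% of all genes tested. Of the 15 genes of COPII coats, which carry cargo out of the ER, and of the KDEL receptors, which return resident chaperones, only the coat subunit gene Sec24a was called. It was at 25.3 and 24.6 CPM in Control and 57.9 and 58.1 CPM in FK866 libraries, with a log2 fold change of 1.22 ± 0.15 (edgeR adjusted p = 0.00304), and kept its call in all 4 fits that left out 1 library. The median of the list was -0.063. Of the 6 ER-phagy genes, 1 rose, the autophagy receptor gene Calcoco1, at 5.17 and 5.46 against 14.2 and 13.6 CPM (1.38 ± 0.24, edgeR adjusted p = 0.00874), also called in all 4 such fits. The median of that list was 0.12.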
